A study of Mus musculus with 12 samples.

Results

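The genes described here are 37 that encode the enzymes of the lysosome, the proteins of its membrane, parts of its proton pump and the regulator Tfeb. They form a list of names with no threshold on a measured value, drawn up with earlier results of these data known, and all 37 were found among the 23238 gene symbols of the deposited tables. By role they are 10 cathepsins, 2 other proteases, 6 glycosidases, 7 proteins of lipid handling with their cofactors, 6 membrane proteins including a channel, 5 proteins of the proton pump and 1 transcription factor.

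The study, whose title concerns DSCR1 (the gene Rcan1), drainage by the lymph vessels of the dura and amyloid pathology, profiled cells taken from the mouse meninges at an age of 20 weeks. Per the labels the cells were lymphatic endothelial cells, which magnetic sorting had isolated from the meninges of 3 to 4 mice per strain. The 12 libraries form 3 groups of 4, titled SJL_B6, AD_B6 and AD_TG, and C57BL/6 is given as the strain of every sample. The titles are not spelled out, so genotype, allele and agent are given here only as titles: AD_B6 and SJL_B6 differ in the first element, AD_TG and AD_B6 in the second, and AD_TG and SJL_B6 in both. No treatment is named, no promoter driving a transgene is given, and it is not stated whether replicate libraries stem from different animals or from a pool. All p-values therefore measure only the spread between these samples, which may be technical.

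Lysosomes are acidic compartments in which proteases, glycosidases and lipases break down material that the cell has taken up or set aside for recycling. A proton pump, the V-ATPase, acidifies them, most of the hydrolases are delivered through mannose 6-phosphate receptors, and the membrane is covered by heavily glycosylated proteins such as LAMP1 and LAMP2. Many lysosomal genes are targets of TFEB and its relatives TFE3 and MITF, which bind an E-box, CACGTG, in their promoters. Macrophages are rich in lysosomes, and endothelial cells carry them as well.

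The E-box is shown first because it is a sequence feature that a part of these genes shares and that played no role in choosing them. RefSeq promoter windows of the mouse build GRCm38.p6, from 250 bases before to 50 bases after an annotated start, were matched for 32 of the 37 genes, in 37 windows since Ctsa, Lgmn, Psap and Tfeb had more than 1. Ctsb, Ctsh, Asah1, Npc1 and Atp6v1h had none. CACGTG, which reads the same on both strands, occurred in 12 of the 37 windows (32.4%), against 2349 of all 32851 windows of this length (7.15%). The longer form TCACGTGA, which contains it and also reads the same on both strands, occurred in 6 of 37 (16.2%) against 320 of all (0.974%). As a motif of another kind, the AP-1 site TGACTCA, searched on both strands, occurred in 2 of 37 (5.41%) against 5.20% of all windows. A further 73 windows belonged to other genes related to the lysosome, whose lists also held sorting proteins, regulators and cathepsin inhibitors. Of these windows, 16 (21.9%) held CACGTG, 8 (11.0%) TCACGTGA and 4 (5.48%) TGACTCA. These are matches of letters and do not show that a factor binds there.

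The 6 genes with the longer form were Ctsa, Ctsd, Mcoln1, Atp6v0d1, Atp6v1a and Gla, so it was found in genes of 4 roles: proteases, a glycosidase, a channel and pump subunits. Below are 50 bases around 1 copy in each, 5′ to 3′ on the strand of the gene, with that copy of TCACGTGA in capitals. The stretch of Ctsa holds another full copy, left in lower case.
Ctsa, chr2:164833739-164833788, plus strand: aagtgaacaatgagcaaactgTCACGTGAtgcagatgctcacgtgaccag
Ctsd, chr7:142387898-142387947, minus strand: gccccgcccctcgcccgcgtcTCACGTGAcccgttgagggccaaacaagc
Mcoln1, chr8:3500452-3500501, plus strand: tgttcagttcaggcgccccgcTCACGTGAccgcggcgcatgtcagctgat
Atp6v0d1, chr8:105566040-105566089, minus strand: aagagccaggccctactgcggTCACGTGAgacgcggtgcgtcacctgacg
Atp6v1a, chr16:44139363-44139412, minus strand: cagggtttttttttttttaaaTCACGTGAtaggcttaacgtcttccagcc
Gla, chrX:134601205-134601254, minus strand: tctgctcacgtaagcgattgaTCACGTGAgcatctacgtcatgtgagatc
The first base of the CACGTG in capitals lay at -12 in Ctsa, -98 in Ctsd, -45 in Mcoln1, -3 in Atp6v0d1, -131 in Atp6v1a and -227 in Gla, with -1 as the base before the annotated start. The other 6 genes with CACGTG alone were Lamp1, Glb1, Gaa, Lgmn, Ctsl and Ctsf. Lamp1 held 4 copies, the most of any of the 37 genes, and its 250 bases before the start are printed to show how closely they lie, again with the E-boxes in capitals.
Lamp1, chr8:13158911-13159160, plus strand: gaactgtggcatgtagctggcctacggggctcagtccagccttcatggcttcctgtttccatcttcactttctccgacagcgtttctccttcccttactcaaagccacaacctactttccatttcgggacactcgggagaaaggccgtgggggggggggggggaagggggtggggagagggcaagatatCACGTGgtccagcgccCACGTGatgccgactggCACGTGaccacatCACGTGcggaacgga

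The values are the deposited log2 amounts per gene, from a library kit whose reads come from the ends of transcripts. In each library the low values lay on even steps, the same for every gene (90.5 to 100% of them within 0.15 of a whole number), so they were not divided by transcript length, and an order of genes by value is an order of reads and not of molecules. The step was taken as 1 read, which gave 4014470 to 9295042 estimated reads per library in SJL_B6, 5469205 to 8905237 in AD_B6 and 4149412 to 9316680 in AD_TG. AD_B6 replicate 3 stood apart with the fewest genes with reads, 8748 against up to 12217 elsewhere. Of 10 lymphatic endothelial markers 3 (Pdpn, Nrp2 and Foxc2) had reads in all 12 libraries and 8 passed the filter on low values, while Prox1, which defines the type, had reads in 2 libraries, Flt4 in 6 and Lyve1 in 11. Of 12 pan-endothelial markers 2 had reads in all 12 libraries and Pecam1 had reads in 8, and of 16 macrophage markers 15 had reads in all 12. In such bulk samples fewer cells of a type and less RNA per cell cannot be told apart.

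Transcripts of most of the 37 lysosomal genes were found in every library. Of the 37 genes, 30 (81.1%) had reads in all 12 libraries, against 4941 of the 11955 genes that passed the filter on low values (41.3%). All 37 passed that filter, which asked for a linear value of 10 or above in 4 or more libraries. Together the 37 made up 1.05 to 1.19% of the linear total in SJL_B6, 0.949 to 1.28% in AD_B6 and 1.09 to 1.23% in AD_TG, so the ranges of the groups overlapped. Their mean log2 values ran from 3.63 for Tfeb to 14.02 for Psap, with a median of 10.19 against 6.55 over all tested genes. A mean of 10 or more was reached by 20 of 37 (54.1%) and by 967 of all tested genes (8.09%).

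**Figure D1:**
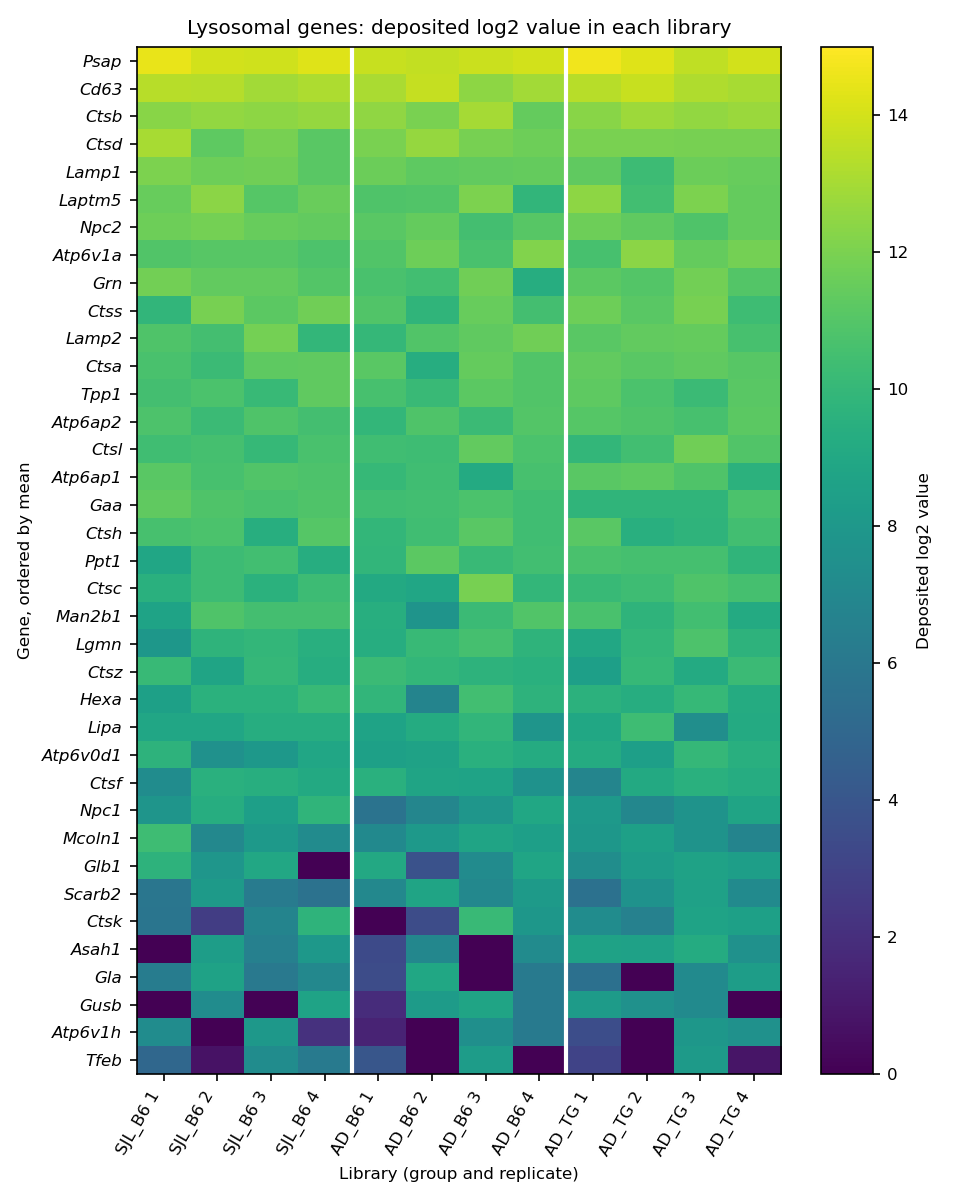
Deposited log2 value (colour) of the 37 lysosomal genes (rows, ordered by mean) in the 12 libraries (columns, 4 per group, white lines between groups). Psap and Cd63 are bright in every library, and the dark cells, values near 0, lie in the lower rows, among Glb1, Ctsk, Asah1, Gla, Gusb, Atp6v1h and Tfeb.

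Among the cathepsins, the proteases of the lysosome, Ctsb had the highest mean, 12.44, and Ctsd exceeded it in SJL_B6 replicate 1 and AD_B6 replicates 2 and 4. Ctsb, a cysteine protease, was 12.33, 12.55, 12.43 and 12.65 in SJL_B6, 12.48, 11.98, 13.00 and 11.46 in AD_B6, and 12.34, 12.79, 12.55 and 12.73 in AD_TG. The lowest and the highest of these values were both from AD_B6. Ctsd, an aspartic protease, was 13.03, 11.29, 11.90 and 11.16 in SJL_B6, 11.98, 12.65, 11.92 and 11.69 in AD_B6, and 11.98, 11.97, 11.91 and 11.93 in AD_TG. The AD_TG libraries lay inside the range of both other groups and close together, with an SD of 0.03 against 0.85 in SJL_B6. Ctss, which trims the invariant chain in antigen-presenting cells, ran from 9.82 to 11.93, and Ctsl, which does so in thymic epithelium, from 9.93 to 11.76.

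The other cathepsins differed in their SD within groups, from 0.62 for Ctsz to 0.86 for Ctsc, 1.04 for Ctsf and 3.17 for Ctsk. Ctsa, which also protects beta-galactosidase and neuraminidase, ran from 9.35 to 11.46, Ctsc, which activates serine proteases of granules, from 8.87 to 11.92, Ctsh from 9.40 to 11.17, Ctsz from 8.47 to 10.25 and Ctsf from 6.82 to 9.52. Ctsk, the collagen-degrading protease of osteoclasts, was 5.86, 2.73, 6.79 and 9.74 in SJL_B6, 0, 3.46, 10.17 and 7.95 in AD_B6, and 7.31, 6.57, 8.70 and 8.50 in AD_TG. It thus ranged from no read to 1648 estimated reads within AD_B6 alone. Of the other proteases, Lgmn, the asparagine endopeptidase that processes cathepsins, ran from 7.94 to 10.79, and Tpp1, a tripeptidyl peptidase, from 10.12 to 11.32.

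The glycosidases held both steady and uneven transcripts. Gaa, which degrades glycogen, was 11.35, 10.88, 10.68 and 10.88 in SJL_B6, 10.40, 10.45, 10.78 and 10.38 in AD_B6, and 9.81, 9.84, 9.79 and 10.72 in AD_TG. Of the AD_TG libraries, 3 lay below every library of the other groups, and replicate 4 lay among them. Hexa, a subunit of beta-hexosaminidase, ran from 6.77 to 10.47, and Man2b1, an alpha-mannosidase, from 7.76 to 10.93. Gla, Glb1 and Gusb, the alpha- and beta-galactosidases and the beta-glucuronidase, had no read in at least 1 library: Gla had reads in 10 of 12, Glb1 in 11 and Gusb in 9. Gusb was 0.02, 7.30, 0.07 and 8.70 in SJL_B6, 1.93, 8.23, 8.74 and 6.14 in AD_B6, and 8.26, 7.57, 7.20 and 0 in AD_TG. Its libraries without reads belonged to 2 groups. A limit of 3 reads, about the upper 95% limit for a count of 0, corresponds to 2.19 in SJL_B6 replicate 1 and 1.79 in AD_TG replicate 4.

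In lipid handling, Psap, the precursor of the saposins that help degrade sphingolipids, had the highest value of the 37 in every library but AD_B6 replicate 2, where Cd63 was higher. It was 14.49, 13.95, 13.93 and 14.26 in SJL_B6, 13.74, 13.61, 13.79 and 13.99 in AD_B6, and 14.67, 14.28, 13.55 and 13.96 in AD_TG. By its mean it stood at place 9 of the 11955 tested genes, and its 3 groups overlapped. Grn, the precursor of the granulins that are needed for lysosomal function, was 11.82, 11.41, 11.40 and 10.98 in SJL_B6, 10.68, 10.44, 11.76 and 9.34 in AD_B6, and 11.24, 10.96, 11.79 and 11.00 in AD_TG. Of the AD_B6 libraries, 3 lay below every library of the other groups, whereas replicate 3 lay near the top.

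Asah1, the acid ceramidase, was 0.02, 8.36, 6.55 and 7.98 in SJL_B6, 3.38, 6.95, 0 and 7.22 in AD_B6, and 8.65, 8.57, 9.23 and 7.60 in AD_TG. These correspond to 0, 464, 54 and 297 estimated reads in SJL_B6, 10, 147, 0 and 113 in AD_B6, and 228, 491, 582 and 236 in AD_TG. The AD_TG libraries all lay above the AD_B6 libraries, but not above those of SJL_B6. For the 0 in AD_B6 replicate 3 the same upper limit, 3 reads, is a value of 1.63. Ppt1, a palmitoyl-protein thioesterase, was 8.86, 10.31, 10.45 and 9.33 in SJL_B6, 9.84, 11.21, 10.16 and 10.46 in AD_B6, and 10.71, 10.57, 10.55 and 9.82 in AD_TG. Npc2 and Npc1, which pass cholesterol out of the lysosome, ran from 10.54 to 11.84 and from 5.72 to 9.80, and Lipa, the acid lipase, from 7.42 to 10.33.

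Among the membrane proteins, Cd63, a tetraspanin of late endosomes and lysosomes, ran from 12.43 to 13.77 and was second to Psap by its mean, 13.20. Lamp1 was 12.03, 11.66, 11.74 and 11.16 in SJL_B6, 11.61, 11.29, 11.43 and 11.46 in AD_B6, and 11.32, 10.31, 11.61 and 11.53 in AD_TG. Its lowest value stood alone in AD_TG replicate 2. Lamp2 ran from 9.94 to 11.86 and Laptm5, a protein of lysosomes in blood cells and macrophages, from 9.87 to 12.46. Scarb2, the receptor that carries glucocerebrosidase, ran from 5.59 to 8.77, and Mcoln1, a cation channel of the lysosome, from 6.79 to 10.32.

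Of the proton pump, Atp6v1a, the catalytic subunit, was 10.93, 11.09, 11.13 and 10.83 in SJL_B6, 10.93, 11.68, 10.68 and 12.15 in AD_B6, and 10.62, 12.37, 11.44 and 11.88 in AD_TG. The SJL_B6 libraries lay close together, inside the range of both other groups. Atp6ap1, an accessory protein needed for assembly, was 11.14, 10.61, 10.93 and 10.82 in SJL_B6, 10.06, 10.40, 9.19 and 10.66 in AD_B6, and 11.14, 11.29, 10.87 and 9.65 in AD_TG. The other accessory protein, Atp6ap2, also called the prorenin receptor, was 10.80, 10.24, 10.89 and 10.54 in SJL_B6, 9.96, 10.86, 10.21 and 11.00 in AD_B6, and 11.04, 10.85, 10.63 and 11.24 in AD_TG. Both overlapped between the 3 groups. Atp6v0d1, a subunit of the membrane sector, ran from 7.60 to 9.99, and Atp6v1h, a regulatory subunit, had reads in 9 of 12 libraries and reached 7.99.

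Tfeb, the regulator, was among the least counted of the 37. It was 4.99, 0.75, 7.31 and 6.14 in SJL_B6, 4.00, 0, 8.28 and 0.03 in AD_B6, and 3.01, 0, 8.18 and 0.85 in AD_TG, or from 0 to 442 estimated reads. The highest value of AD_B6 and of AD_TG each belonged to 1 library, with 442 and 281 estimated reads, beside others with at most 16. Its relatives, which are not among the 37, were counted more evenly: Tfe3 had reads in 11 of 12 libraries and Mitf in all 12.

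Over all tested genes, the median correlation between libraries was 0.4675 within groups and 0.4691 between groups. Replicates were thus no more alike than libraries of different groups. Spread between replicates followed the level. Where the mean reached 10, in 20 genes, the SD within groups had a median of 0.566 and ran from 0.316 for Npc2 to 0.857 for Ctsc, against a median of 0.598 for all tested genes at that level. For the 17 below 10 the median was 1.05, against 2.75 for all tested genes below 10. The genes were not matched for level within that wide range, so these medians do not compare like with like. Gusb, Atp6v1h, Tfeb, Ctsk, Gla and Asah1 had an SD of 3.91, 3.75, 3.52, 3.17, 3.14 and 3.01, so that replicates of 1 group differed manyfold. Pairs of the 30 genes with reads in all libraries did not move together as a block: over 435 pairs and 12 libraries the correlation r had a median of -0.0019, was positive in 213 pairs, and ran from -0.77 for Ctsd with Man2b1 to 0.86 for Ctsa with Hexa. These correlations are descriptions, since the pairs share libraries and scaling.

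**Figure D2:**
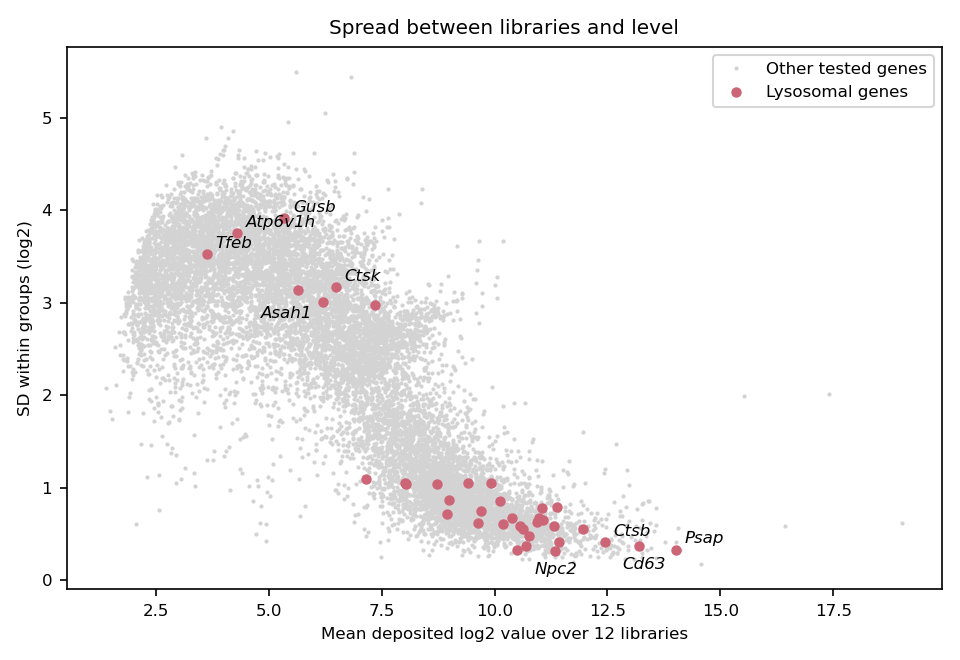
SD of the log2 values within groups (vertical axis) against the mean log2 value over 12 libraries (horizontal axis) for all tested genes (grey) and the 37 lysosomal genes (red). The well-counted genes such as Psap, Cd63 and Npc2 lie at the lower right, with an SD of 0.33, 0.37 and 0.32, and Gusb, Atp6v1h and Tfeb at the upper left.

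The comparison of AD_B6 with SJL_B6 sets apart libraries that share B6 in their titles. No lysosomal gene passed the test, and most of the 37 had slightly lower means in AD_B6: 23 were lower and 14 higher, with a median difference of -0.19. Over all tested genes 40.2% were higher and the median difference was -0.31, so the lysosomal genes lay near the whole. Of all tested genes 0% passed at an adjusted p of 0.05 (limma, Benjamini-Hochberg adjustment). At an unadjusted p under 0.05, 0 of 37 were higher, against 1.36% of all tested genes, and 0 of 37 lower, against 4.05%. The groups did not overlap for 0 of 37 in the higher direction, against 0.912% of all, and for 0 of 37 in the lower direction, against 1.91%.

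By role, 6 of 7 genes of lipid handling had a lower mean in AD_B6 (median difference -0.55), as had 4 of 6 glycosidases (-0.35), 4 of 6 membrane proteins (-0.11), 3 of 5 pump genes (-0.11), 5 of 10 cathepsins (-0.06) and Tfeb (-1.72), while both other proteases were higher (0.37). With the libraries scaled to the same linear total, 3 of 6 membrane proteins were lower and the cathepsin median was 0.02. Quantile scaling moved the median over all tested genes from -0.31 to -0.12 and that of the 37 to -0.15, with 23 of 37 still lower. The smallest unadjusted p-values belonged to Grn, with a difference of -0.85 (SE 0.44; limma adjusted p = 0.869), Atp6ap1 with -0.80 (SE 0.47) and Psap with -0.38 (SE 0.22) in the lower direction. In the higher direction they were Ppt1 with 0.68 (SE 0.51), Lgmn with 0.67 (SE 0.60) and Scarb2 with 1.24 (SE 1.25). None of these 6 passed, and the 95% interval of each included 0, from -1.76 to 0.06 for Grn. Leaving out AD_B6 replicate 3 gave 24 lower and 13 higher and took Atp6ap1 to -0.50. With 1 library left out the Grn difference ran from -1.25 (without AD_B6 replicate 3) to -0.45 (without AD_B6 replicate 4). Without SJL_B6 replicate 1 the difference was 0.23 for Lgmn and 0.39 for Ppt1, and Ppt1 was at 0.42 without AD_B6 replicate 2.

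The comparison of AD_TG with AD_B6 sets apart libraries that share AD in their titles. Again no lysosomal gene passed, and the means were mostly higher in AD_TG: 26 of 37 were higher and 11 lower, with a median difference of 0.30. Over all tested genes 62.8% were higher, with a median of 0.41. Of all tested genes 0% passed (limma, adjusted p). At an unadjusted p under 0.05, 0 of 37 were higher, against 4.34%, and 0 of 37 lower, against 1%. Asah1 alone, 1 of 37, had groups that did not overlap in the higher direction, against 1.95% of all tested genes, and 0 of 37 in the lower direction, against 0.928%. Since AD_B6 enters both this comparison and the one before, a low or high AD_B6 library moves them in opposite directions.

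All 5 pump genes had a higher mean in AD_TG than in AD_B6 (median difference 0.44), as had 6 of 7 genes of lipid handling (0.33), 7 of 10 cathepsins (0.21), 4 of 6 glycosidases (0.42), 3 of 6 membrane proteins (-0.04) and 1 of 2 other proteases. The 5 pump genes were also higher under all 3 other scalings, whereas with a shift by the mean of the genes read in all libraries 5 of 10 cathepsins and 22 of the 37 were higher and the median of all tested genes was 0.27. The membrane protein median was 0.02 after quantile scaling. Asah1 had a difference of 4.13 (SE 2.04; limma adjusted p = 0.871), with a 95% interval from -0.09 to 8.34. Without AD_B6 replicate 3, the library with no read of Asah1, the difference was 2.66. Grn differed by 0.70 (SE 0.44) and Psap by 0.33 (SE 0.22) in the higher direction. In the lower direction the smallest p-values belonged to Gaa with -0.46 (SE 0.42), Lamp1 with -0.26 (SE 0.36) and Ctsz with -0.39 (SE 0.58). The Lamp1 difference was 0.040 without AD_TG replicate 2, so its direction rested on that library, and it was -0.39 without AD_TG replicate 3. Ctsz was at -0.052 without AD_TG replicate 1, -0.26 without AD_B6 replicate 1 and -0.63 without AD_TG replicate 4. Grn was at 0.29 without AD_B6 replicate 4 and 1.098 without AD_B6 replicate 3, and Psap at 0.15 without AD_TG replicate 1 and 0.52 without AD_TG replicate 3.

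The comparison of AD_TG with SJL_B6 spans both elements of the titles and shares its groups with the other comparisons. The 37 genes were evenly divided, with 21 higher and 16 lower in AD_TG and a median difference of 0.11, against 53.3% higher and 0.08 over all tested genes. None passed, as 0% of all tested genes did (limma, adjusted p). At an unadjusted p under 0.05, 0 of 37 were higher, against 1.84%, and 1 of 37 lower, Gaa, against 1.15%. The groups overlapped for every one of the 37, where 1.46% of all tested genes lay apart in the higher and 1.07% in the lower direction.

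Gaa had the difference with the smallest unadjusted p among the 37 in this comparison, -0.91 (SE 0.42), with a 95% interval from -1.78 to -0.03 and a limma adjusted p of 0.999. Its mean and SD (n = 4) were 10.95 ± 0.29 for SJL_B6, 10.50 ± 0.19 for AD_B6 and 10.04 ± 0.45 for AD_TG. Without AD_TG replicate 4, the library that lay among the other groups, the difference was -1.13 and the limma adjusted p 1 (0.968 to 1 over all alternatives). The unadjusted limma p, 0.0430, ran from 0.0196 with the stricter filter to 0.128 for eBayes without trend, so its place under 0.05 depended on such settings. In the lower direction followed Lamp1 with -0.46 (SE 0.36) and Npc1 with -0.98 (SE 0.97), and in the higher direction Atp6v1a with 0.58 (SE 0.41), Asah1 with 2.78 (SE 2.04) and Ppt1 with 0.67 (SE 0.51). Without SJL_B6 replicate 1, which had no read of Asah1, Asah1 was at 0.88 and Ppt1 at 0.38. Without AD_TG replicate 2 Atp6v1a was at 0.32 and Lamp1 at -0.16, and without AD_TG replicate 1 Atp6v1a was at 0.90. The median width of the 95% interval to each side was 1.05 for the 37 genes, against 3.85 for all tested genes. These intervals are not adjusted for the number of genes tested. For a typical lysosomal gene, differences larger than that width could therefore also fail the test.

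**Figure D3:**
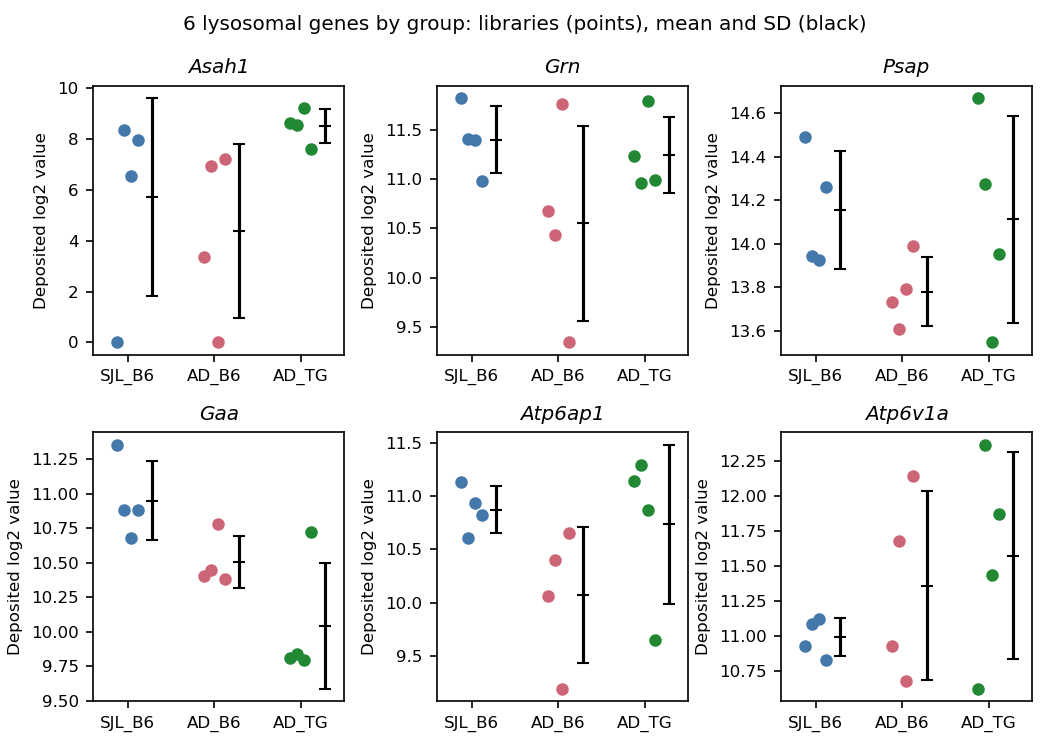
Deposited log2 values of Asah1, Grn, Psap, Gaa, Atp6ap1 and Atp6v1a (vertical axes, which differ in range and do not start at 0 in each panel) in SJL_B6, AD_B6 and AD_TG, with 1 point per library and the mean and SD in black (n = 4). The AD_TG points of Asah1 all lie above those of AD_B6, and 3 of 4 AD_TG points of Gaa, from 9.79 to 9.84, lie below all others.

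**Figure D4:**
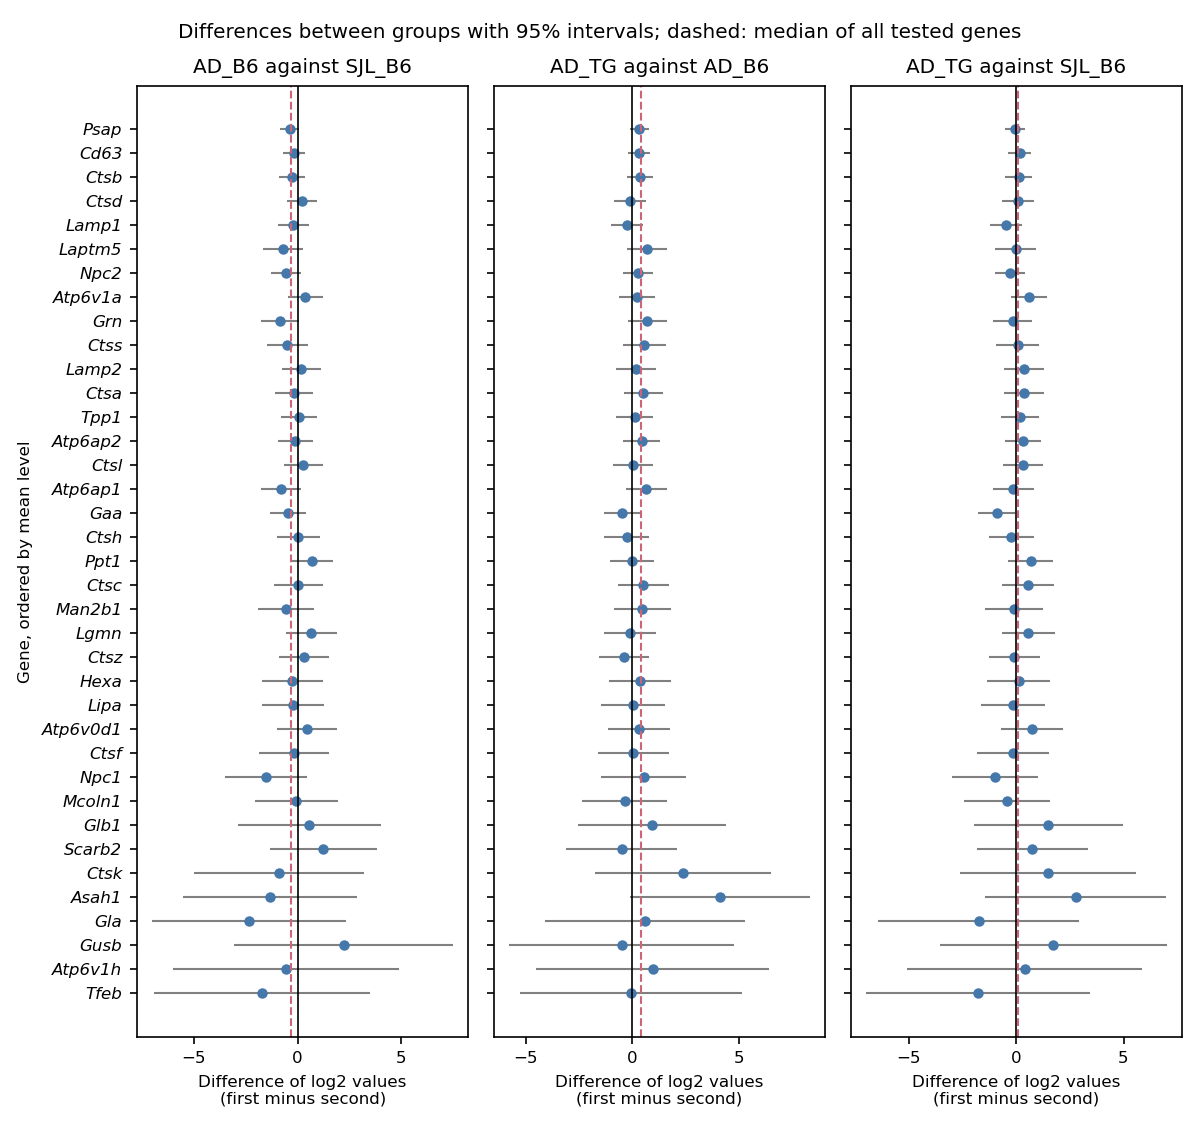
Difference of log2 values (horizontal axes, first group minus second) with 95% intervals for the 37 lysosomal genes (rows) in the 3 comparisons. The dashed line marks the median of all tested genes, -0.31, 0.41 and 0.08, and every interval includes 0 except that of Gaa in AD_TG against SJL_B6.

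The genes with an E-box in the promoter window did not stand apart in any steady direction. In AD_B6 against SJL_B6 the 12 genes with CACGTG had a median difference of 0.07 (6 higher, 6 lower) and the 20 with a window but without it -0.23 (7 higher, 13 lower). In AD_TG against AD_B6 these medians were 0.05 (7 higher, 5 lower) and 0.32 (15 higher, 5 lower), and in AD_TG against SJL_B6 they were 0.21 (7 higher, 5 lower) and 0.10 (11 higher, 9 lower). Among the genes whose sequences are printed above, Lamp1, with 4 copies, had a difference of -0.20, -0.26 and -0.46 in the 3 comparisons in this order. Gla, with 2 copies of the longer form as in Ctsa, had -2.35, 0.61 and -1.74, with an SD within groups of 3.14. Of the pump genes, Atp6v1a had 0.37, 0.22 and 0.58 and Atp6v0d1 0.45, 0.30 and 0.75. The values were -0.15, 0.52 and 0.37 for Ctsa, 0.21, -0.11 and 0.10 for Ctsd, and -0.07, -0.36 and -0.42 for Mcoln1.

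A further 78 genes related to the lysosome were listed by role. They covered other hydrolases, membrane proteins and pump subunits, sorting and tagging proteins, nutrient sensing regulators and cathepsin inhibitors. Of these, 75 passed the filter on low values (all but Cst6, Cst7 and Stfa3), and none passed the test in any comparison. In AD_B6 against SJL_B6, 30 were higher and 44 lower (median difference -0.11), in AD_TG against AD_B6 46 higher and 29 lower (0.21), and in AD_TG against SJL_B6 41 higher and 34 lower (0.11). The smallest unadjusted p of these genes belonged to Atp6v0a2 in both comparisons with AD_B6 and to Slc17a5 in AD_TG against SJL_B6. Atp6v0a2, a subunit of the membrane sector of the pump, was 9.19, 8.55, 9.08 and 8.89 in SJL_B6, 7.93, 7.54, 0 and 7.74 in AD_B6, and 9.45, 10.62, 8.40 and 9.47 in AD_TG. Every AD_B6 library lay below every library of the other groups. Its difference was -3.13 (SE 1.30; limma adjusted p = 0.869) against SJL_B6 and 3.68 (SE 1.30; limma adjusted p = 0.871) for AD_TG against AD_B6. Without AD_B6 replicate 3 these differences were -1.19 and 1.75.

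Of the other pump subunits outside the 37, 10 of 14 had a lower mean in AD_B6 than in SJL_B6 (median -0.22), 6 of 14 a higher one in AD_TG than in AD_B6 (-0.10), and 4 of 14 a higher one in AD_TG than in SJL_B6 (-0.30). Atp6v0e2, an isoform of a small membrane subunit, was 10.18, 11.14, 9.95 and 10.62 in AD_B6 and 9.89, 9.24, 9.05 and 9.72 in AD_TG, without overlap, a difference of -0.999 (SE 0.55). Atp6v1d, of the stalk, differed by -0.998 (SE 0.64) between AD_TG and SJL_B6, and by -0.51 without AD_TG replicate 3. So subunits of the same pump had differences of either sign in each of the comparisons.

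Slc17a5, the sialic acid exporter of the lysosome, was 0.02, 0, 3.51 and 0 in SJL_B6, 8.19, 6.17, 0 and 9.37 in AD_B6, and 7.88, 6.55, 6.23 and 4.89 in AD_TG. All 4 AD_TG libraries lay above SJL_B6, with a difference of 5.50 (SE 2.40; limma adjusted p = 0.999), and the difference of AD_B6 from SJL_B6 was 5.05 (SE 2.40; limma adjusted p = 0.869). With 3 of 4 SJL_B6 libraries without a read, these differences depend on the value added before the logarithm, and with 8 added in place of 1 they were 3.23 and 3.43. The phospholipase Pla2g15 was lower in AD_B6 than in SJL_B6 without overlap, with a difference of -1.87 (SE 0.86). Rptor, a subunit of the mTOR complex that acts at the lysosome, differed by 3.78 (SE 2.10) between these groups, and by 2.503 without SJL_B6 replicate 4.

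In AD_TG against AD_B6, the peptidase Dpp7 differed by 2.85 (SE 1.46) without overlap and Hgsnat, an acetyltransferase of heparan sulfate breakdown, by -2.89 (SE 1.56). Each of these rests on 1 library with no read: without AD_B6 replicate 3 the Dpp7 difference was 1.06, and without AD_TG replicate 2 the Hgsnat difference was -1.02. In AD_TG against SJL_B6, Nagpa, which uncovers the mannose 6-phosphate tag, differed by 2.22 (SE 1.03), and by 0.77 without SJL_B6 replicate 1. Idua, an iduronidase, differed by -2.03 (SE 1.56), by 0.074 without AD_TG replicate 2 and by -3.15 without AD_TG replicate 1. None of these 4 passed the test.

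No marker of a cell type passed the test in any comparison (limma), and the lists did not share 1 direction. Of 16 macrophage markers, 14 had a lower mean in AD_B6 than in SJL_B6 and 15 a higher mean in AD_TG than in AD_B6; under the other scalings these were 12 to 13 and 14. Their summed share of the linear total was 0.434 to 0.718% in SJL_B6, 0.248 to 0.587% in AD_B6 and 0.348 to 0.548% in AD_TG, and each of the 16 had reads in at least 11 libraries. All 8 tested lymphatic endothelial markers were lower in AD_B6 than in SJL_B6 (7 after quantile scaling) and 6 of 8 higher in AD_TG than in AD_B6 (5 after quantile scaling or the shift by the mean), with summed shares of 0.0254 to 0.0631% in SJL_B6, 0.0282 to 0.0512% in AD_B6 and 0.0284 to 0.0404% in AD_TG. Choroid plexus markers made up 0.236 to 5.29%, 0.324 to 8.64% and 1.64 to 6.47% in the 3 groups in this order. Their members were higher in 4 of 7 in AD_B6 against SJL_B6, 6 of 7 in AD_TG against AD_B6 and 7 of 7 in AD_TG against SJL_B6. Neutrophil markers were higher in 6 of 7, 3 of 7 and 6 of 7 in these comparisons, pan-endothelial markers in 3 of 11, 7 of 11 and 5 of 11, and fibroblast markers in 2 of 9, 4 of 9 and 3 of 9. The part of these cells in the differences of the lysosomal genes was not tested.

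Across the 12 libraries, the 30 lysosomal genes with reads in all of them were set against the mean level of 6 marker lists, 180 relations in all, with 100000 permutations each and adjustment over the 180. This comparison was added after the values had been seen. The permutations moved values freely across the groups, and the genes share libraries and scaling with the markers. The permutation p-values are therefore descriptions. By rank correlation 2 relations had an adjusted permutation p under 0.05, both of which also passed by r. Ctss followed the macrophage markers, with r = 0.868 (permutation p = 0.00033, adjusted 0.0297) and rho = 0.895 (permutation p = 0.00015, adjusted 0.0162). Without the 2 libraries farthest from the median macrophage level, SJL_B6 replicate 2 and AD_B6 replicate 2, r was 0.811, and after subtraction of the group means it was 0.909. The values of Ctss behind it were 9.90, 11.93, 11.20 and 11.73 in SJL_B6, 10.90, 9.82, 11.53 and 10.52 in AD_B6, and 11.68, 11.16, 11.91 and 10.32 in AD_TG.

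Atp6ap2 followed the choroid plexus markers, with r = 0.816 (permutation p = 0.00124, adjusted 0.0479) and rho = 0.895 (permutation p = 0.00018, adjusted 0.0162). Without SJL_B6 replicate 2 and AD_B6 replicate 1, which had the lowest levels of these markers, r was 0.795, and after subtraction of the group means 0.825. By r alone, 3 further relations passed: Hexa with the fibroblast markers (r = 0.851, adjusted permutation p = 0.0036, and 0.136 by rho), Ctss with the fibroblast markers (0.821, 0.0479 and 0.136) and Psap with the lymphatic endothelial markers (0.814, 0.0479 and 0.136). For Psap, r was 0.91 within SJL_B6, 0.20 within AD_B6 and 0.83 within AD_TG. The lymphatic level averages 10 genes, of which 3 had reads in all 12 libraries. It was 4.19 in AD_B6 and 5.63 in AD_TG, whereas the mean summed share was 0.0370 and 0.0335%. The macrophage and fibroblast lists moved together, with rho = 0.706 over the libraries, so their relations with Ctss are not separate. For the macrophage list as a whole, 19 of 30 lysosomal genes had a positive rho, with a median of 0.13.

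**Figure D5:**
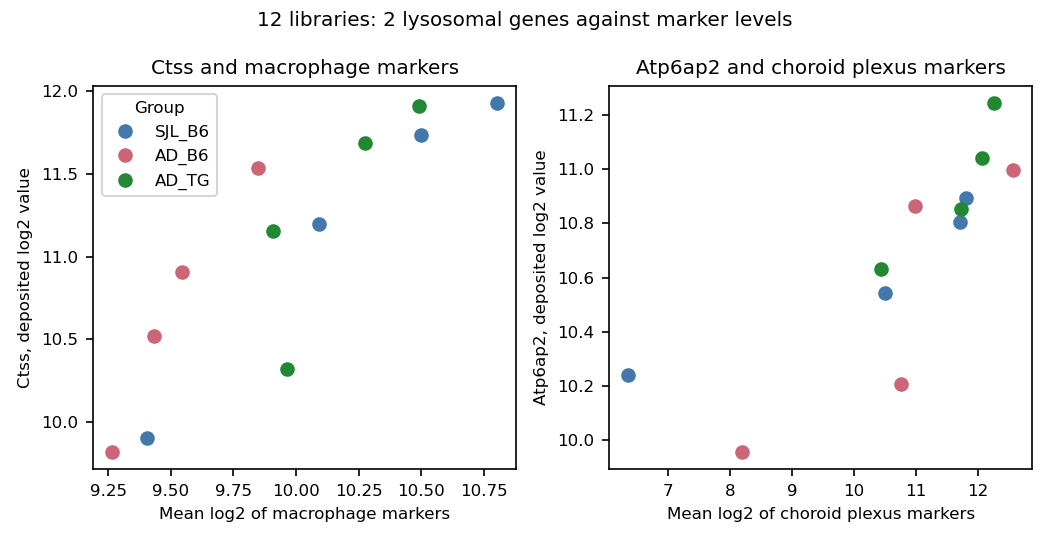
Deposited log2 value (vertical axes) of Ctss against the mean log2 value of the macrophage markers (left) and of Atp6ap2 against that of the choroid plexus markers (right), with 1 point per library coloured by group. Points of all 3 groups lie along each rising trend, with rho = 0.895 in both panels.

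For 7 of the 37 genes the reference places another gene of the tables on overlapping ground: Ctsa with Neurl2 and Pltp, Ctsb with Fdft1, Ctsz with Nelfcd, Hexa with Tmem202, Glb1 with Tmppe, Asah1 with Frg1 and Ppt1 with Cap1. These are overlaps of whole gene spans, without regard to strand or exons. Whether strand was used in counting is not given in the sources used here, and whether reads of these pairs were mixed was not tested.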

How the data were processed

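Libraries were made with the Lexogen QuantSeq kit from Trizol-extracted total RNA, per the labels' protocols. Each deposited file holds 1 library, as the log2(x + 1) that the authors took of a scaled amount for every gene symbol; the scaling is not given in the sources used here. Bowtie2, bedtools and the human build hg19 are named, per the submitters' processing notes, although the samples are from mouse; no coordinates of that build were used. Of 23282 entries, 44 repeats of 35 symbols were left out. The estimated reads were 4014470 to 9316680 per library, and limits from them cover counting error only. Replicates could differ by more than that, as Gusb did with 174, 243, 142 and 0 estimated reads in AD_TG.

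A gene had reads at a linear value of 0.3 or more. The 11955 genes with at least 10 in at least 4 libraries were fitted together with limma 3.58.1 (R 4.3.3; eBayes with trend, tested on simulated data), two-sided, with Benjamini-Hochberg adjustment and a threshold of 0.05. Correlations used scipy 1.17.1. Named were any gene past the threshold, otherwise the 3 of the 37 genes and the 2 further genes related to the lysosome per direction with the smallest p. The 37 genes and the lists were chosen with earlier results of these data known. Alternatives were other filters, scalings, pseudocounts, fits and each library left out.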

Additional observations from a re-analysis of the deposited data

Results flagged for a closer look

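In 6 of 111 sets of 4 libraries (5.41%), 1 library's value of a lysosomal gene lay far from the other 3; chance flags about 1 in 20 groups. For Ctsf these were SJL_B6 replicate 1 at 7.29 (131 estimated reads), with the others from 9.14 to 9.49, and AD_TG replicate 1 at 6.82 (64 estimated reads), with the others from 9.14 to 9.52. For Gaa they were AD_B6 replicate 3 at 10.78, with the others from 10.38 to 10.45, and AD_TG replicate 4 at 10.72, with the others from 9.79 to 9.84. Gusb was at 0 in AD_TG replicate 4, with the others from 7.20 to 8.26, and Man2b1 was at 8.70 in SJL_B6 replicate 1, with the others from 10.49 to 10.85. The median over the 37 genes was 10.48 in AD_B6 replicate 3, with the other AD_B6 libraries from 9.91 to 9.96; this library also had the fewest genes with reads. No cause of these values was tested.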

How the results depend on the processing

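Each comparison was repeated under 21 alternatives: 9 of the fit, filter, pseudocount and scaling, and 12 that left out a library. The number of genes past the threshold was 0 in each, except for eBayes without trend, which gave 10 genes in AD_B6 against SJL_B6, 10 in AD_TG against AD_B6 and 2 in AD_TG against SJL_B6, none of them among the 37; the cause was not tested. Leaving out 1 library gave 0 to 0 genes in each comparison. The median difference of the 37 ran from -0.28 to -0.07, from 0.16 to 0.33 and from 0.02 to 0.19 in these comparisons when 1 library was left out, and from -0.19 to -0.10, 0.16 to 0.30 and 0.06 to 0.14 under the others. The lowest adjusted p of a named gene of the 37 under any alternative was 0.701. Of 620 values of the 30 named differences, 618 kept their direction and their side of the threshold. The exceptions, both without AD_TG replicate 2, were Lamp1 in AD_TG against AD_B6 at 0.040 (-0.39 to 0.040 over the libraries left out) and Idua in AD_TG against SJL_B6 at 0.074 (-3.15 to 0.074), where each had the one low AD_TG value in that library. The median over all tested genes moved to -0.07 with the stricter filter and to -0.11 without AD_B6 replicate 3 in AD_B6 against SJL_B6, and to 0.10 with the stricter filter and 0.17 with quantile normalization in AD_TG against AD_B6. Same-numbered libraries did not deviate together (correlations from -0.0153 to 0.0670, with 0 of 12 above 0.1). This does not exclude that the numbers pair libraries, which the labels do not say. A replicate block called 0 genes in each comparison and left the medians of the 37 at -0.19, 0.30 and 0.11. A library without a read of a gene could move a difference strongly, as for Asah1 in AD_TG against AD_B6, from 4.13 to 2.66 without AD_B6 replicate 3. That library had 8905237 estimated reads in all, so such values were not confined to libraries of low depth. Their cause was not tested.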
